A study of Homo sapiens with 6 samples.

Results

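The genes described here are 8 genes of cholesterol and fatty acid synthesis: HMGCS1, MVD, TM7SF2 and SC5D, which encode enzymes of the sterol pathway, SREBF1, which encodes a master regulator of lipid synthesis, and FADS2, ACSL1 and ME1, which encode enzymes of fatty acid metabolism. They were chosen by symbol from the 6018 genes of the authors' deposited table, and each symbol matched 1 row. The choice was made with their fold changes in this same comparison known, so those values are a description and not a test of the group.

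RNA of C4-2B cells was sequenced; this human prostate cancer line is established from LNCaP through its castration-resistant subline C4-2. The series has 3 libraries of parental C4-2B, passaged in 1% DMSO and labelled passage 0, and 3 of C4-2B-Abi, a subline selected in abiraterone raised from 1 to 20 µM over at least 6 months, kept in 5 µM and labelled passage 15 to 18. Both lines grew in RPMI medium with 10% serum, and total RNA gave 50 bp single-end reads. Abiraterone blocks CYP17A1, an enzyme of androgen synthesis that works downstream of cholesterol. Passage and selection cannot be told apart. The extraction text names 10 µM abiraterone without making clear whether the parental cells received it. Whether the 3 libraries of a line are separate cultures is not stated, so the listed standard errors may hold technical spread alone.

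No value per library was used, because the authors' deposited table holds only a comparison by DESeq2 between 2 conditions named C and V. Depth is therefore unknown, and the values of single libraries cannot be shown. The header spells C as control and V as vehicle, and says that positive values mean higher expression in C. It ties neither letter to a cell line: the titles of the parental libraries carry a V, yet the parental cells are also the study's control. Every direction below is therefore stated for C or for V, and is not read as selected or parental. From the listed mean and the fold change a level in each condition was derived, for equal numbers of libraries in C and V; it has no error of its own. In bulk RNA, less RNA per cell and fewer cells carrying it cannot be told apart.

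Cells make cholesterol from acetyl-CoA through mevalonate, squalene and lanosterol, and make fatty acids from acetyl-CoA with reducing power from NADPH. Both pathways are switched on by the SREBP transcription factors. These are made as membrane-bound precursors that SCAP escorts to the Golgi for cleavage when sterols are low and that INSIG proteins hold in the endoplasmic reticulum when sterols are ample. SREBP-2 mainly drives sterol genes, and SREBP-1, the product of SREBF1, mainly drives fatty acid genes. In prostate cancer cells androgens are known to raise the expression of lipid synthesis genes.

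The promoters of the 4 sterol enzymes and of ME1 are shown. They were picked because these are 5 of the 6 genes higher in V and their first-listed windows hold matches to the motifs searched. The first-listed window of ACSL1, the remaining gene higher in V, holds none and is not shown, though other windows of ACSL1 hold matches. Each window is taken from RefSeq (GRCh38.p14), runs from 250 bases before to 50 bases after the transcript start and is written 5′ to 3′ on the gene's own strand. Capitals mark matches, on either strand, to CCAAT (the box bound by NF-Y, a partner of SREBPs), CACGTG (the E-box) or TGACNNNGC (the core of the antioxidant response element bound by NRF2). In the reverse orientation CCAAT reads ATTGG.
HMGCS1, chr5:43313363-43313662, minus strand: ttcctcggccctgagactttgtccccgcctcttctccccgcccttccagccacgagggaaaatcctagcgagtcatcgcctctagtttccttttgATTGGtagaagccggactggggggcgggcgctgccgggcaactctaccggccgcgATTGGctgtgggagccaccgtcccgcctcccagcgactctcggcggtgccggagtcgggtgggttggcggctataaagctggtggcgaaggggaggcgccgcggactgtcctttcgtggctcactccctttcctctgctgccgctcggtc
TM7SF2, chr11:65111622-65111921, plus strand: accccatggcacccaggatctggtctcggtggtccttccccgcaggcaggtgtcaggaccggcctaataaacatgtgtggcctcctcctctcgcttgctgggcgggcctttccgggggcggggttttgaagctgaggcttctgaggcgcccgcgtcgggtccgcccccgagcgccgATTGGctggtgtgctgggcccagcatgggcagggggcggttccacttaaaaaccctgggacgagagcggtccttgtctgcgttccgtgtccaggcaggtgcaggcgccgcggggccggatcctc
SC5D, chr11:121292521-121292820, plus strand: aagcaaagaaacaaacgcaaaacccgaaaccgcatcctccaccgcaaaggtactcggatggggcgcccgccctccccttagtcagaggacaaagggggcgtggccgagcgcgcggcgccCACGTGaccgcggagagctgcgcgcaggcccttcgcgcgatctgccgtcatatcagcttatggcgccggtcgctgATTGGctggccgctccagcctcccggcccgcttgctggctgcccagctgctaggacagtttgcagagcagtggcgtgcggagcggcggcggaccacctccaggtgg
MVD, chr16:88663042-88663341, minus strand: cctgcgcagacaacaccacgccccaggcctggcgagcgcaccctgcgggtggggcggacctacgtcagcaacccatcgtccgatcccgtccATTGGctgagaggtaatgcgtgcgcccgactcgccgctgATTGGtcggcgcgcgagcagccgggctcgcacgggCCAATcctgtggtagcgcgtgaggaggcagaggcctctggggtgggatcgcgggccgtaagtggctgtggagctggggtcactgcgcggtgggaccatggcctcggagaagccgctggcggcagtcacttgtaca
ME1, chr6:83431002-83431301, minus strand: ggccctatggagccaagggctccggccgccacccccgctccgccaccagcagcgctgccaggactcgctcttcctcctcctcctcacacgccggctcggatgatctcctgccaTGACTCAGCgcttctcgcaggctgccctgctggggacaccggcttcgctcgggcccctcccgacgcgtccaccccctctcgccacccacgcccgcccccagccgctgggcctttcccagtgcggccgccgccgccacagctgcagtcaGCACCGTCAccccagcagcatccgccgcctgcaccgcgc

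CCAAT was in the first-listed windows of 4 of the 8 genes, the 4 sterol enzymes, and in 34.6% of all 35116 RefSeq windows. HMGCS1 had 2 matches, whose first bases lay at -155 and -100 from the start, MVD had 3, at -159, -120 and -85, TM7SF2 had 1 at -74 and SC5D had 1 at -56. SC5D also held CACGTG at -131, a motif found in 7.26% of all windows. ME1 held no CCAAT in its window but 2 matches to TGACNNNGC, at -137 and 11, and 13.3% of all windows held that motif. TCACNCCAC, a core of the sterol response element, was in none of the 8 first-listed windows and in 1.13% of all windows. The first-listed windows of SREBF1, FADS2 and ACSL1 held none of these motifs. HMGCS1, SC5D, FADS2 and ACSL1 have further windows for other transcript starts. Over all windows, CCAAT was found for 6 genes, TGACNNNGC for 3 and TCACNCCAC for ACSL1 alone. The share of all genes with a match in any window was not computed. These counts therefore have no background, and the shares above are per window. The first-listed window was chosen after the windows were seen, so nothing is read from these shares. A match of letters is no evidence of binding.

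**Figure D1:**
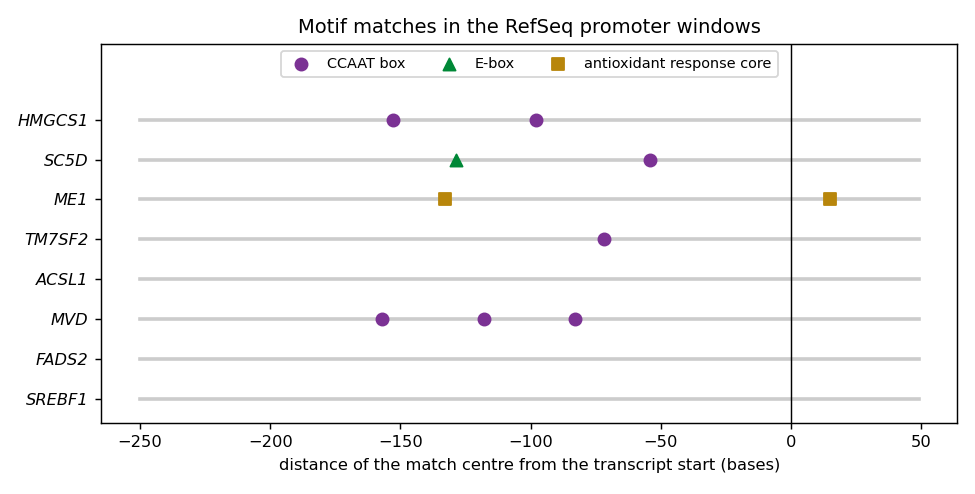
Matches to the CCAAT box (circles), the E-box (triangle) and the antioxidant response core (squares) in the first-listed RefSeq window of each of the 8 genes, by distance in bases from the transcript start; grey lines span each window. The 4 sterol enzyme genes each carry at least 1 CCAAT match upstream of the start, and SREBF1, FADS2 and ACSL1 carry none of the 3 motifs.

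Of the 8 genes, 6 were higher in V (HMGCS1, SC5D, ME1, TM7SF2, ACSL1 and MVD) and 2 were higher in C (SREBF1 and FADS2). A gene is called here when its adjusted p in the authors' deposited table (DESeq2, Benjamini-Hochberg) is under 0.05. All 8 were called, as were 89.4% of all listed genes. Called genes higher in C made up 46.0% of all listed genes, and those higher in V 43.4%. Of the 2954 listed genes that code for protein, 31.6% were called with C higher and 61.0% with V higher. The median log2 fold change of C over V was -1.45 over the 8 genes and -1.55 over all called protein-coding genes in the authors' deposited table. Nothing is read from these shares, because the comparison itself led to the choice of the genes.

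The table is a selected list, and this bears on every gene that is absent from it. Each listed gene has p under 0.05 and a log2 fold change of at least 1.20 in size. FADS2 at 1.23 and MVD at -1.24 lay just inside that limit in the authors' deposited table. A pathway gene that is not listed may have missed either limit, so nothing is known here of its level.

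**Figure D2:**
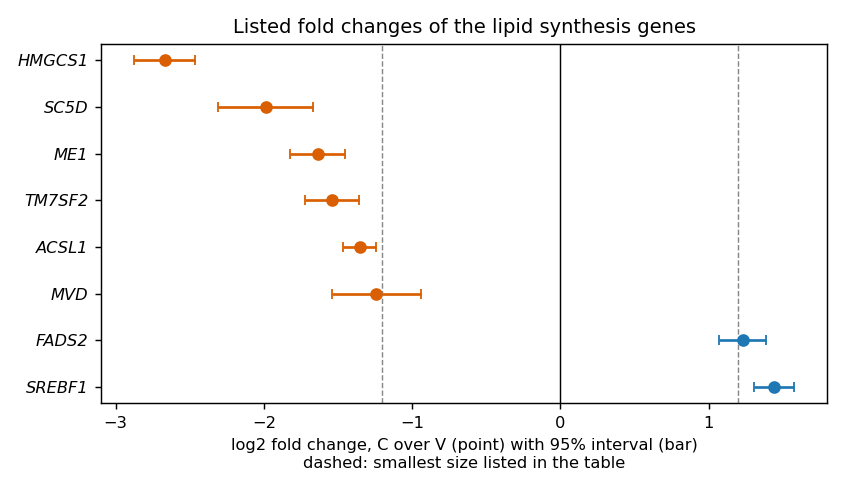
Log2 fold change of C over V (points) with its 95% interval (bars) for the 8 genes, as listed in the authors' deposited table; dashed lines mark the smallest size listed. HMGCS1 lies farthest to the V side at -2.67, and SREBF1 (1.44) and FADS2 (1.23) lie on the C side.

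HMGCS1 differed most. It encodes the cytosolic enzyme that joins acetyl-CoA and acetoacetyl-CoA into HMG-CoA, an early step on the way to mevalonate. The listed log2 fold change of C over V was -2.67 ± 0.10 (SE) in the authors' deposited table, where its mean was 1305 normalised counts. That is 6.36-fold higher in V, with a 95% interval of 5.52 to 7.33. Derived levels came to 355 in C and 2255 in V, in normalised counts. Its fold ranked 792 in size among the 1802 protein-coding genes called higher in V, while its Wald statistic, the fold change over its standard error, ranked 98. Its interval overlapped that of none of the other 7 genes. HMGCS1 lies on chromosome 5, at 43289395 to 43313512 on the minus strand (GENCODE release 29, GRCh38, here and below).

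MVD encodes mevalonate diphosphate decarboxylase, which yields isopentenyl diphosphate, the building block of sterols and isoprenoids. It was the least abundant of the 8 genes in the authors' deposited table, with a mean of 238 normalised counts. Its derived levels were 142 in C and 334 in V. The log2 fold change in the authors' deposited table was -1.24 ± 0.15, and its 95% interval, -1.54 to -0.94, was the only one of the 8 to reach inside a log2 of 1. The gene lies on chromosome 16, at 88651935 to 88663161 on the minus strand.

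TM7SF2 encodes a sterol reductase of the endoplasmic reticulum that acts just after the first demethylation of lanosterol, a step it shares with the lamin B receptor LBR. Its log2 fold change was -1.54 ± 0.09 in the authors' deposited table, where its mean was 733 normalised counts. The derived levels were 375 in C and 1091 in V, a 2.91-fold difference. LBR was not listed. TM7SF2 lies on chromosome 11 at 65111845 to 65116384 on the plus strand, and overlaps VPS51, a gene on the same strand that was not listed.

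SC5D encodes the desaturase that turns lathosterol into the sterol that DHCR7 then reduces to cholesterol. Its log2 fold change in the authors' deposited table was -1.99 ± 0.16 at a mean of 520 normalised counts. The derived levels were 209 in C and 831 in V, a 3.97-fold difference with a 95% interval of 3.17 to 4.96. The standard error was wide for a gene of this abundance: it exceeded that of 93.0% of the 215 other protein-coding genes listed with a mean within 1.25 times its own, whose median was 0.11. SC5D lies on chromosome 11, at 121292453 to 121308694 on the plus strand.

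The other sterol enzymes were mostly not listed. Of the 22 enzymes of cholesterol synthesis read here, 5 were listed and called, each with V higher, 4 of them being the genes above. The fifth was MSMO1, the sterol methyl oxidase that starts removal of the remaining methyl groups after TM7SF2 has acted. In the authors' deposited table its log2 fold change was -1.41 ± 0.19 at a mean of 365 normalised counts, with derived levels of 199 in C and 531 in V. The 5 genes had a median log2 fold change of -1.54, beside -1.55 over all called protein-coding genes. Among all listed protein-coding genes, 61.0% were called higher in V, so the V side is also the more common one at large. SQLE, LSS and DHCR7, which make squalene epoxide, lanosterol and cholesterol, were among the 17 not listed. The listed enzymes were thus spread along the pathway, from HMGCS1 and MVD at the mevalonate end to TM7SF2, MSMO1 and SC5D in the conversion of lanosterol.

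**Figure D3:**
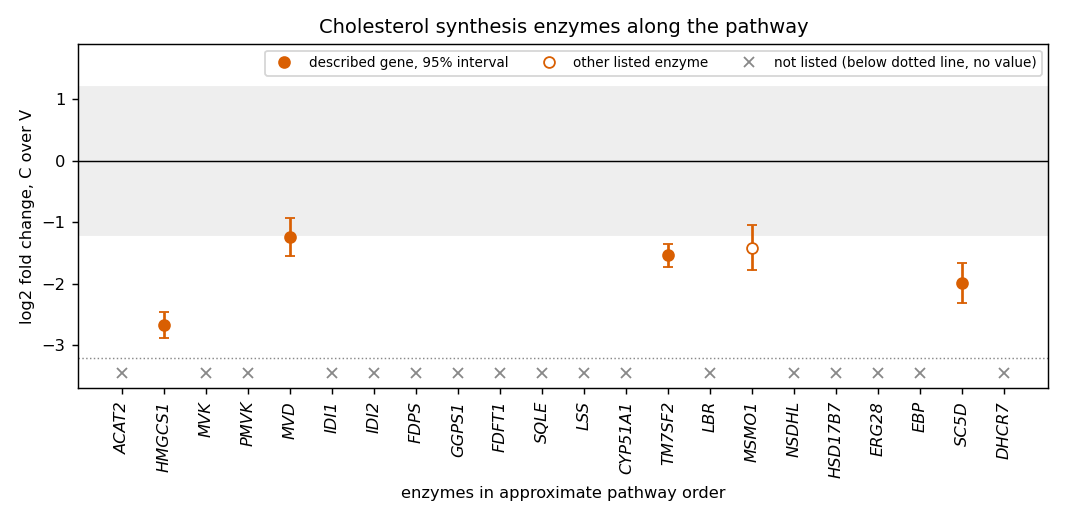
Log2 fold change of C over V with its 95% interval for the 22 cholesterol synthesis enzymes in approximate pathway order, from the authors' deposited table; crosses below the dotted line mark the 17 enzymes that are not listed and have no value, and the grey band marks sizes the table does not list. The 5 listed enzymes all lie on the V side, as most called coding genes do, between -1.24 for MVD and -2.67 for HMGCS1.

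SREBF1 stood on the other side from these enzymes. Its value in the authors' deposited table was a log2 fold change of 1.44 ± 0.07 at a mean of 2769 normalised counts, 2.72-fold higher in C with a 95% interval of 2.47 to 2.99. Derived levels came to 4049 in C and 1489 in V. By mean count it ranked 22 among the 934 protein-coding genes called higher in C, and by fold 686. The gene lies on chromosome 17 at 17810399 to 17837002 on the minus strand and yields SREBP-1a and SREBP-1c from different starts, which one value per gene does not separate. It also hosts the microRNA gene MIR33B, which was not listed, and overlaps RAI1 on the opposite strand, also not listed.

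Genes that control SREBP processing were listed in 3 of 17 cases, and all 3 were called, 1 with C higher and 2 with V higher. Their median log2 fold change was -1.23, beside -1.55 over all called protein-coding genes. Besides SREBF1 these were INSIG2 (-1.41 ± 0.22), which retains the SREBP precursors, and PAQR3 (-1.23 ± 0.19), which anchors SCAP and SREBP at the Golgi, both with V higher in the authors' deposited table. Their derived levels were 59.0 in C and 156 in V for INSIG2, and 64.7 in C and 152 in V for PAQR3. SREBF2, SCAP and INSIG1 were not listed. SREBF1 was thus the only called gene of this list higher in C.

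FADS2 was the other gene higher in C, and the most abundant of the 8 by mean count. It encodes the desaturase that opens the conversion of linoleic and alpha-linolenic acid into longer polyunsaturated fatty acids. The log2 fold change listed in the authors' deposited table was 1.23 ± 0.08 at a mean of 3317 normalised counts. Derived levels were 4651 in C and 1983 in V, a 2.35-fold difference. FADS2 lies on chromosome 11 at 61792980 to 61867354 on the plus strand, in a cluster with its relatives FADS1 and FADS3. FADS1 overlaps it over 29694 bases on the opposite strand and was not listed. FADS3, the next gene of the cluster, lay on the other side from FADS2 in the authors' deposited table, at -1.51 ± 0.17, with derived levels of 85.4 in C and 243 in V. FEN1, a replication nuclease gene, lies within the FADS2 span on the same strand and was higher in C as well, at 1.83 ± 0.10 in the authors' deposited table with a mean of 743 normalised counts. How reads in shared exons were assigned is not given in the sources used here, and the part of FEN1 in the FADS2 value was not tested.

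Of the 18 desaturases and elongases, 5 were listed and called, 2 with C higher and 3 with V higher. Their median log2 fold change was -1.51, beside -1.55 over all called protein-coding genes. ELOVL2, an elongase of polyunsaturated fatty acids, was the other one higher in C, at 2.27 ± 0.18 in the authors' deposited table, with derived levels of 197 in C and 40.7 in V. ELOVL4, an elongase of very long chains, was higher in V at -2.08 ± 0.80 in the authors' deposited table, with derived levels of 9.42 in C and 39.8 in V. ELOVL3 was higher in V at -4.76 ± 1.40 in the authors' deposited table, but its derived level was 0.253 in C and 6.85 in V, so the size of that difference is poorly determined. SCD, the desaturase that makes oleate, was not listed.

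ACSL1 encodes a long-chain acyl-CoA synthetase, which activates fatty acids for use in lipids or for oxidation. It had the smallest standard error of the 8 genes. In the authors' deposited table the log2 fold change was -1.35 ± 0.06 at a mean of 1970 normalised counts, 2.56-fold higher in V with a 95% interval of 2.36 to 2.76. The derived levels were 1108 in C and 2832 in V. Only 6.67% of the 60 other protein-coding genes listed with a mean within 1.25 times its own had a smaller standard error. ACSL1 lies on chromosome 4 at 184755595 to 184826818 on the minus strand.

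Of the 19 acyl-CoA synthetases, 3 were listed and called. ACSL5, a mitochondrial and microsomal relative, was higher in V at -6.51 ± 1.22 in the authors' deposited table, with a derived level of 0.398 in C and 36.2 in V, so the size of its difference is poorly determined. ACSM3, which acts on medium chains, was higher in C at 1.29 ± 0.14 in the authors' deposited table, with derived levels of 292 in C and 119 in V. The list thus divided into 1 gene higher in C and 2 higher in V. Its median log2 fold change was -1.35, beside -1.55 over all called protein-coding genes.

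ME1 encodes cytosolic malic enzyme, which turns malate into pyruvate and supplies NADPH for fatty acid synthesis; it is also a known target of NRF2. In the authors' deposited table the log2 fold change was -1.64 ± 0.09 at a mean of 845 normalised counts. The derived levels were 411 in C and 1279 in V, a 3.11-fold difference with a 95% interval of 2.74 to 3.53. ME1 lies on chromosome 6 at 83210389 to 83431071 on the minus strand. Within its span, on the opposite strand, lies the processed pseudogene AL391416.1, which was higher in C at 1.46 ± 0.13 in the authors' deposited table with a mean of 401 normalised counts. Whether reads were counted by strand is not stated, so reads of the pair cannot be told apart with certainty.

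Of 16 NADPH supply genes, 14 were not listed and have no value here. The other 2 were listed, called and higher in V: ME1 and PGD, a dehydrogenase of the pentose phosphate pathway. In the authors' deposited table the log2 fold change was -1.76 ± 0.08 for PGD, with derived levels of 842 in C and 2854 in V. The 95% intervals of the 2 fold changes overlapped. The V side was also the more common one among all listed protein-coding genes, 61.0% of which were called higher in V.

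The enzymes that build the fatty acid chain itself were not listed. Of the 13 fatty acid synthesis genes, 3 were listed and 2 called, ME1 and OLAH, both higher in V. So were 61.0% of all listed protein-coding genes. ACLY, ACACA and FASN, which make cytosolic acetyl-CoA, malonyl-CoA and palmitate, were absent from the list. OLAH, a thioesterase, was listed at -5.35 ± 1.44 in the authors' deposited table, with derived levels of 0.159 in C and 6.52 in V, so the size of that difference is poorly determined. THRSP, at 2.85 ± 1.37, had a mean of 1.83 normalised counts in the authors' deposited table and was not called (adjusted p = 0.0814, DESeq2).

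**Figure D4:**
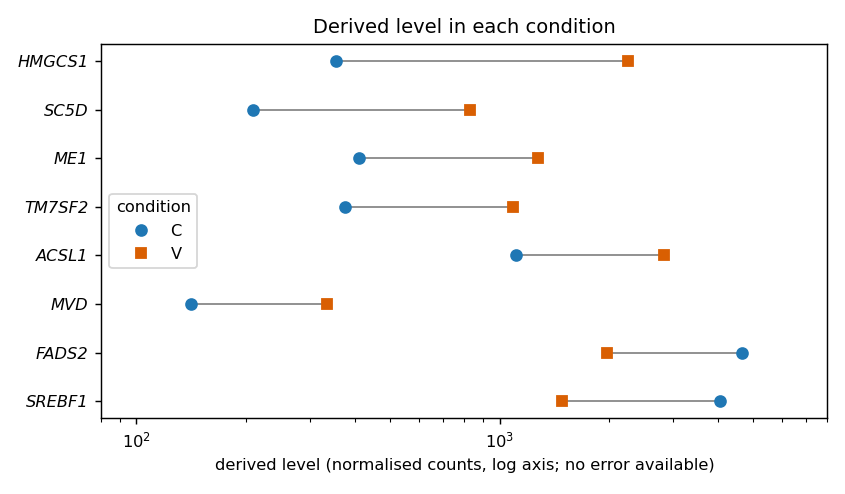
Derived level in C (circles) and V (squares) of the 8 genes, in normalised counts on a log axis; a grey line joins the pair, and no error is available. SREBF1 and FADS2 are the only 2 with the higher level in C, 4049 and 4651 normalised counts.

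The fold changes of the 8 genes were compared by whether their 95% intervals overlapped. Overlap is not a test of a difference, so genes with overlapping intervals may still differ. On the V side the order was HMGCS1, SC5D, ME1, TM7SF2, ACSL1 and MVD, and of these neighbours only HMGCS1 and SC5D had 95% intervals that did not overlap, with a difference of 0.68 on the log2 scale. ME1, TM7SF2, ACSL1 and MVD all overlapped one another. SC5D did not overlap ACSL1 or MVD. On the C side SREBF1 and FADS2 overlapped.

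To compare levels between genes, the derived levels were divided by the union length of the annotated exons, in normalised counts per kb. In C the order was SREBF1 (504), FADS2 (422), ACSL1 (176), ME1 (122), TM7SF2 (110), HMGCS1 (75.4), SC5D (37.6) and MVD (30.0). In V it was HMGCS1 (480), ACSL1 (451), ME1 (379), TM7SF2 (320), SREBF1 (185), FADS2 (180), SC5D (149) and MVD (70.9). HMGCS1 thus took place 6 in C and place 1 in V, while SC5D and MVD were lowest in both. Without an error for these levels, close neighbours in either order cannot be ranked, and the isoforms these cells use may be shorter than the union of exons.

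Genes of cholesterol uptake, efflux and storage surround the synthesis pathway. Of 19 uptake and trafficking genes, 4 were listed and 3 called. TMEM97, a sterol-responsive membrane protein that binds NPC1, was higher in C at 1.36 ± 0.09 in the authors' deposited table, with derived levels of 858 in C and 335 in V. LRP8, a receptor for apolipoprotein E and reelin, was higher in C at 1.27 ± 0.11 in the authors' deposited table. NPC2, which carries cholesterol out of the lysosome, was higher in V at -1.54 ± 0.11 in the authors' deposited table. The 3 called genes thus lay on both sides. Of all listed protein-coding genes, 31.6% were called with C higher and 61.0% with V higher.

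Of 16 genes of efflux and oxysterol metabolism, 3 were listed and 2 called, 1 on each side. The shares over all listed protein-coding genes were 31.6% called with C higher and 61.0% with V higher. SMPDL3A (-1.38 ± 0.21) had the higher value in V, in the authors' deposited table. APOC1, an apolipoprotein gene, was higher in C at 3.20 ± 1.01 in the authors' deposited table, with derived levels of 44.8 in C and 4.89 in V. ABCA1, the main cholesterol exporter, was not listed.

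Of 29 lipid storage genes, 6 were listed and called, each of them higher in V; their median log2 fold change was -1.62, beside -1.55 over all called protein-coding genes. Of all listed protein-coding genes, 61.0% were called higher in V, so the V side is also the more common one among coding genes at large. Only 4 of the 6 storage genes had a mean of at least 100 normalised counts. The derived level in C was under 1 for 1 of them all, so the size of that difference is poorly determined. The 4 named by the rule of smallest p, with values from the authors' deposited table, were LPIN2 (-1.49 ± 0.09), a phosphatidate phosphatase, NCEH1 (-2.08 ± 0.14), which splits cholesteryl esters, PNPLA2 (-1.26 ± 0.10), which splits triglycerides, and AGPAT2 (-1.20 ± 0.20), an acyltransferase of triglyceride synthesis. The called genes thus include enzymes that build stored lipid and enzymes that break it down. None of 28 fatty acid oxidation genes was listed. That is, 0 met both the unadjusted p under 0.05 of DESeq2 and the fold limit of the table. Their changes below that limit are unknown. The 28 genes do not include the peroxisomal oxidases ACOX2 and ACOX3, which were listed and called on opposite sides, as given under the other observations.

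**Figure D5:**
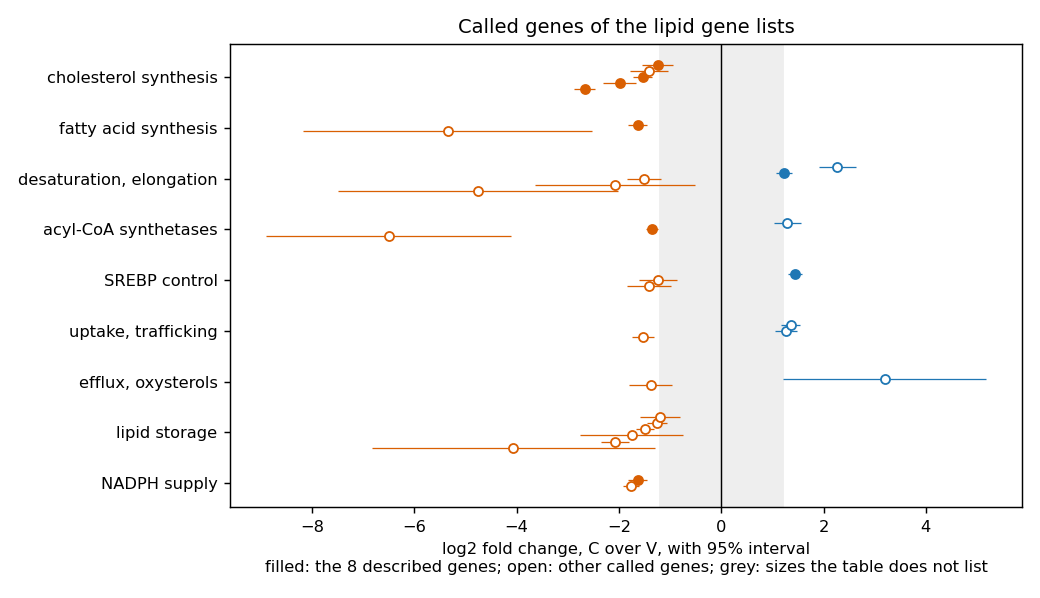
Log2 fold change of C over V with its 95% interval for every called gene of 9 lipid gene lists, from the authors' deposited table; filled points are the 8 described genes, open points the other called genes, and the grey band marks sizes the table does not list. The called genes of cholesterol synthesis (5), fatty acid synthesis (2), lipid storage (6) and NADPH supply (2) lie on the V side, as most called coding genes do. ME1 is in both the fatty acid synthesis and the NADPH supply list. SREBF1, FADS2, ELOVL2, ACSM3, TMEM97, LRP8 and APOC1 lie on the C side.

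Markers were read for the identity of the cells. Of 14 prostate luminal markers, 4 were listed and called: KLK3 (2.17 ± 0.07), KLK2 (2.59 ± 0.08) and TRPM8 (1.58 ± 0.12), higher in C, and KRT8 (-1.45 ± 0.10), with V higher, as the authors' deposited table lists them. KLK3, which encodes prostate-specific antigen, had a mean of 9267 normalised counts there. Of 10 adipocyte markers only PLIN4 was listed, with derived levels of 9.79 in C and 32.9 in V. Of 10 hepatocyte markers SERPINA1 and TF were listed, with a summed derived level of 8.51 in C and 24.6 in V. Of 10 leukocyte markers 5 were listed, PTPRC, LYZ, ITGAM, CD14 and CD68, and summed to 2.47 in C and 85.6 in V. Of 10 fibroblast markers COL1A1 and PDGFRB were listed, with a sum of 82.5 in C and 297 in V. Markers that are not listed have no value here, so which of them were at 0 is not known. For the 6 lipid genes with V higher, the derived V levels ran from 334 for MVD to 2832 for ACSL1, and the part of other cells in the lipid gene values was not tested.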

How the data were processed

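RNA sequencing of 3 parental and 3 abiraterone-selected libraries is represented by 1 table, the authors' DESeq2 comparison. Per the file headers, the mean is a signal value, the authors' mean of normalised counts over all samples. Per the file headers, the authors estimated the log2 fold change, C against V, by maximum likelihood. The deposited standard errors and Wald statistics were treated as score values. Per the file headers, the authors took each p-value from a Wald test and adjusted it by the Benjamini-Hochberg method. The submitters' processing notes name FastQC and Cufflinks 2.2.1, with no role; the aligner, the counter and the build are not given in the sources. The labels name 2 library kits, of which 1 is stranded.

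The 6018 listed genes were read with pandas 2.3.3; 4 adjusted p-values of 0 beside a p above 0 were read as not given. No test was run, because there are no values per library. Intervals are the listed fold change ± 1.96 standard errors. GENCODE release 29 (GRCh38) gave gene types, positions and exon lengths for 5935 Ensembl identifiers, all 8 genes among them. Promoters came from RefSeq (GRCh38.p14), the first-listed window per gene; all 8 genes matched. The first-listed window was chosen after the windows were seen. A pair of longer sterol response element forms planned for the motif search is not reported here. The level derivation was tested on simulated data.

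Some genes are not reported here and were left out of the lists and their counts. The 8 genes, the 15 gene lists and the rule for named genes were chosen with earlier results of these data known. The rule takes the 8 genes, every called gene of the lists of cholesterol synthesis, fatty acid synthesis, desaturation and elongation, acyl-CoA synthetases and SREBP control, and up to 4 called genes with the smallest p of each other list. FEN1, AL391416.1, THRSP and CD68, and genes named only as not listed, fall outside it and were named after their values were seen.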

Additional observations from a re-analysis of the deposited data

How the results depend on the processing

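The counts of called genes were repeated with 4 other rules. With an adjusted p under 0.01, all 22 counts by gene group and side stayed within 1.5 times the first count. Desaturation and elongation went from 3 to 2 in V, and lipid storage from 6 to 5 in V. A count that was 0 at first could not move under any of these stricter rules. When the log2 fold change had to reach 2 in size, 14 of 22 counts moved. The 8 genes then gave 0 higher in C and 1 higher in V, HMGCS1, and cholesterol synthesis gave 1 in V, fatty acid synthesis 1 in V, desaturation and elongation 1 in C, acyl-CoA synthetases 0 in C and 1 in V, SREBP control 0 in C and 0 in V, uptake and trafficking 0 in C and 0 in V, efflux 0 in V, lipid storage 2 in V and NADPH supply 0 in V. With a mean of at least 100, fatty acid synthesis, desaturation and elongation, and acyl-CoA synthetases gave 1 in V, and efflux gave 0 in C. With a 95% interval beyond a log2 of 1, SREBP control and efflux gave 0 in V, and of the 8 genes only MVD was lost. Fewer genes meet these stricter limits by construction. No count had a direction to reverse.

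With 3 libraries on one side and 2 on the other, derived levels were 0.873 to 1.17 times those given. The order of C and V could not change in any of the 8 genes, because the derivation keeps the listed fold change. With the window cut to 200 bases before the start, each motif was found in as many of the 8 genes. No paired analysis was possible because the table has no column per library; for the same reason no fit without a replicate was made. Depth is unknown.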

Other observations

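Some lipid genes outside the lists were read after their values were seen, by family. Of the 10 oxysterol-binding protein-like genes, which encode sterol and phospholipid carriers, 4 were listed, and all 4 were called. So were 89.4% of all listed genes. Of the listed protein-coding genes, 31.6% were called with C higher and 61.0% with V higher. OSBPL7 (-3.04 ± 0.28), OSBPL6 (-1.84 ± 0.25) and OSBPL10 (-1.70 ± 0.25) were higher in V, and OSBPL3 (1.44 ± 0.16) was on the C side, in the authors' deposited table. OSBPL7 had derived levels of 13.3 in C and 109 in V, and OSBPL3 had 253 in C and 93.3 in V.

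The peroxisomal acyl-CoA oxidases of branched chains lay on opposite sides. ACOX2, which acts on bile acid intermediates and branched chains, was higher in C at 1.60 ± 0.20 in the authors' deposited table, with derived levels of 96.0 in C and 31.6 in V. ACOX3, which acts on branched chains, was higher in V at -1.96 ± 0.16 in the authors' deposited table, with derived levels of 118 in C and 458 in V.

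Of 9 fatty acid-binding protein genes, 2 were called, both with C higher in the authors' deposited table: FABP5 (3.37 ± 1.41) and FABP6 (1.93 ± 0.81). The derived levels of FABP5 were 52.8 in C and 5.12 in V, with a standard error too wide to size the difference. Those of FABP6 were 8.10 in C and 2.13 in V, so the size of its difference is poorly determined too. Among all listed protein-coding genes, 31.6% were called with C higher. Nothing is read from the shared side of these 2 genes.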
